A study of Mus musculus with 6 samples.

Results

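The 6 genes described here are 4 members of the placental prolactin family (Prl8a9, Prl2c2, Prl2c3 and Prl2c5) and 2 granzymes (Gzmd and Gzme), out of 34745 genes in the table of primary mouse renal fibroblasts cultured alone or with Th17 cells. They were taken by symbol, and the symbols had been chosen from the contrast between these cultures, because all 6 had higher counts with Th17 cells. Their fold changes are therefore given as a description, with no test. The fibroblasts were wild type (WT), grown out of digested mouse kidney. In both groups the cells were plated and left to adhere for 6 h. In the coculture group an insert with pores of 0.4 μm then held Th17 cells above them for 24 h, and only the lower chamber was collected. The Th17 cells had been induced from splenic CD4+ T cells with antibodies to CD3 and CD28, IL-1β, IL-6, IL-23 and an antibody to IFN-γ. The study kept Balb/c mice. Age and sex of the animals behind these libraries, and whether lone wells received an empty insert, were not given in the sources used here. Each group had 3 libraries. No source said whether these came from separate cultures or animals, so SD and SE measure only the spread between libraries.

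The libraries held between 12050529 and 13209581 fragments, and 13088 genes had enough counts to be tested. Libraries of one group differed by more than sampling noise, with a chi-square value per gene of 6.38 or more for each pair. The fibroblast label was matched by the markers examined. All 14 fibroblast markers passed the filter on low counts, and their summed level was 54229 to 56403 CPM in lone fibroblasts and 26837 to 30945 CPM after coculture (CPM, counts scaled to library size with the trimmed mean of M values, TMM). By the test and thresholds given below, 5 of the 14 (Col1a1, Col1a2, Col3a1, Acta2 and Lum) were called lower after coculture, and 1 (Dcn) higher. Over all genes tested, 7.78% were called lower and 3.87% higher. In bulk RNA, a change in the number of cells that express a gene and a change in RNA per cell cannot be told apart.

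In rodents the prolactin gene has been copied many times, and the copies lie together in the genome. Most of them encode hormones secreted by trophoblast cells of the placenta. The Prl2c genes encode proliferins, angiogenic hormones of the placenta that were first found in proliferating mouse fibroblast lines. Granzymes are serine proteases stored in the granules of cytotoxic lymphocytes and delivered to target cells with the help of perforin. Granzymes D and E belong to a mouse subfamily that is best known from killer lymphocytes, among them those of the pregnant uterus.

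All 6 genes are annotated as protein-coding on mouse build GRCm38, and none overlaps another annotated gene. Prl2c3 (ENSMUSG00000056457, chromosome 13, 12790822 to 12800078), Prl2c2 (ENSMUSG00000079092, chromosome 13, 12996132 to 13005383) and Prl2c5 (ENSMUSG00000055360, chromosome 13, 13182715 to 13191923) lie in the same stretch of the chromosome. Prl8a9 (ENSMUSG00000006490, chromosome 13, 27558009 to 27564604) lies far from them on the same chromosome, within the main prolactin cluster. Gzme (ENSMUSG00000022156, chromosome 14, 56117619 to 56120625) and Gzmd (ENSMUSG00000059256, chromosome 14, 56129556 to 56132608) are direct neighbours in the granzyme cluster. In every member the lowest cocultured library was above the highest lone library. The same was true of 24.3% of all genes tested, but since this contrast chose the members, nothing is read from their count.

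**Figure D1:**
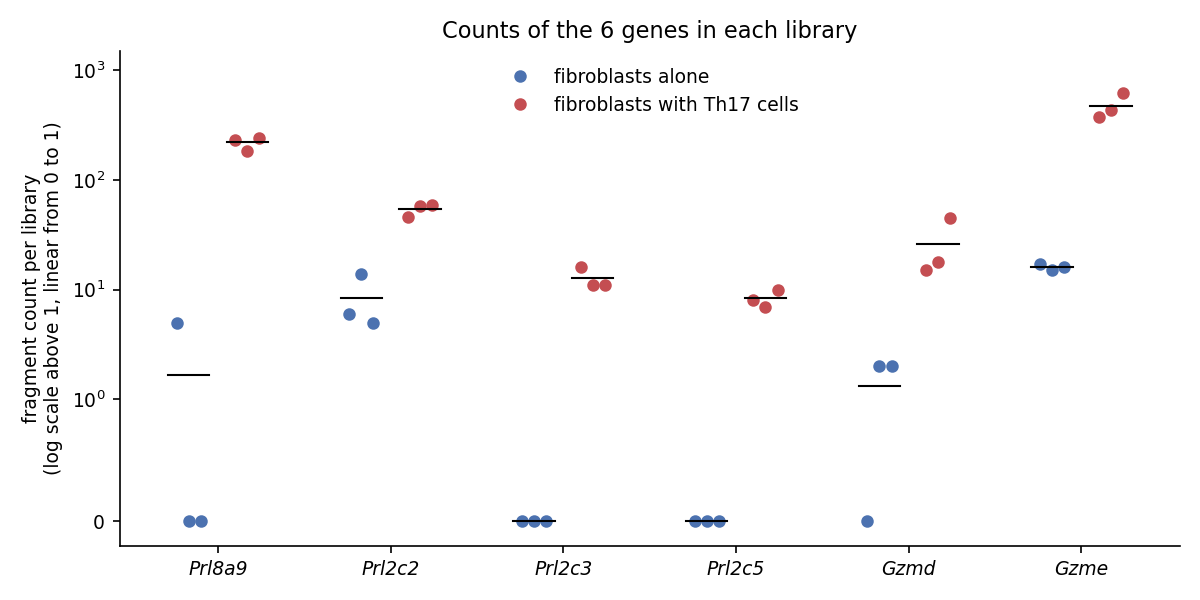
Fragment counts (vertical axis, log scale above 1 and linear from 0 to 1) of the 6 genes in each of the 3 lone and 3 cocultured libraries, with the horizontal bar at the group mean. Cocultured counts reached 612 for Gzme and 241 for Prl8a9, whereas Prl2c3 and Prl2c5 were at 0 in all lone libraries.

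Prl8a9, which encodes a prolactin-like hormone of the placenta, went from near absence to a clear signal. Its counts were 5, 0 and 0 in lone fibroblasts and 231, 185 and 241 after coculture. The cocultured libraries lay close together, the highest being 1.26 times the lowest. The mean level was 0.129 ± 0.224 CPM alone and 16.7 ± 1.95 CPM with Th17 cells (SD, n = 3 each). The ratio of the summed counts, 657 against 5, was 125, with a 95% exact interval for counting error from 53.2 to 386. A single library set the lone level. Without lone replicate 1 the lone count was 0, and Prl8a9 was at least 65.9-fold higher, taking 3 counts in a lone library as the floor. Its transcript can be told from all others. No stretch of 50 bases in it occurs in an annotated transcript of another gene, and its nearest relative on the list, Prl8a6, has 82.0% identical bases.

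Prl2c2, the gene of the classical proliferin, was the only Prl2c gene with fragments in lone fibroblasts. It had 6, 14 and 5 counts alone and 46, 58 and 59 with Th17 cells. The mean was 0.665 ± 0.383 CPM alone and 4.15 ± 0.637 CPM after coculture (SD, n = 3 each), a log2 fold change of 2.62 (SE 0.350) or 6.14-fold. Lone replicate 2 was the high one of its group, and without it the log2 fold change was 3.20. Prl2c3, a nearly identical gene, was at 0 counts in lone fibroblasts and at 16, 11 and 11 in the cocultured libraries. Against the floor of 3 counts per library it was at least 3.80-fold higher. Prl2c5 was likewise at 0 in lone fibroblasts, with 8, 7 and 10 counts after coculture, at least 2.50-fold higher. It was the 1 member that did not pass the filter on low counts, so 5 of the 6 entered the fit. Both bounds are small because the cocultured counts themselves are small.

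The proliferin genes are so alike that their separate counts are uncertain. The transcripts of Prl2c2 and Prl2c3 have 99.5% identical bases over 842 aligned positions, and that of Prl2c5 is 96.6% identical to Prl2c2. In Prl2c2, 89.5% of all stretches of 50 bases, 66.4% of 100 bases and 50.9% of 150 bases also occur in a transcript of another gene. For Prl2c3 these shares were 78.6%, 62.3% and 49.9%, and for Prl2c5 they were 39.6%, 9.29% and 0%. Read length, and the way fragments that match several genes were assigned, were not given in the sources used here.

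**Figure D2:**
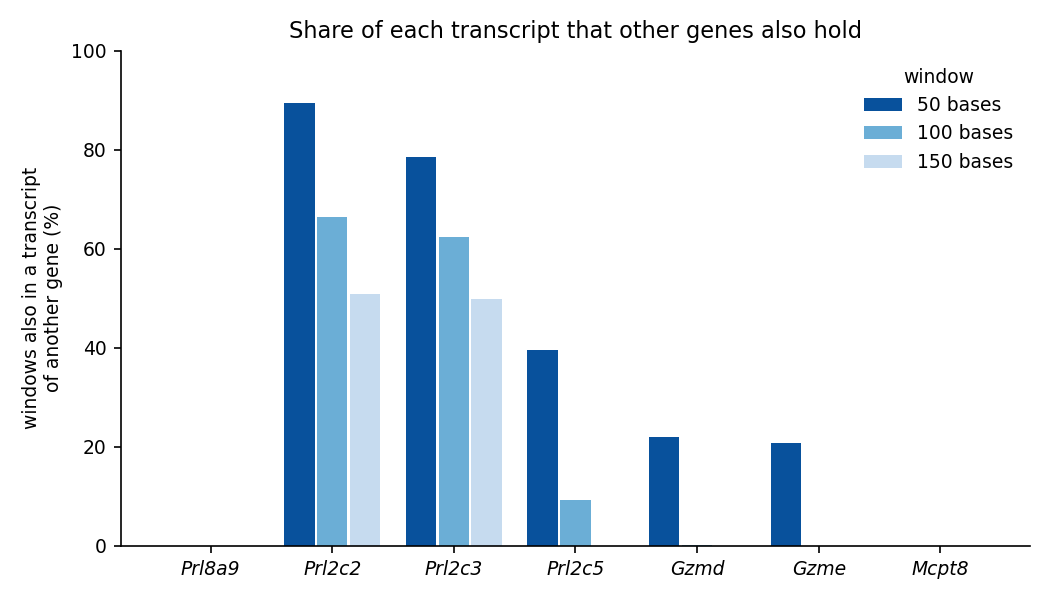
Percent of stretches of 50, 100 and 150 bases (bars) in the longest coding transcript of each gene that also occur in an annotated transcript of another gene. Prl2c2 and Prl2c3 kept about equal shares, 50.9% and 49.9%, at 150 bases, whereas Prl8a9 and Mcpt8 were at 0% throughout.

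Summing the 4 Prl2c rows of the table gives a value that does not depend on how fragments were divided among them. Gm7040, an annotated gene that shares stretches with Prl2c2 and Prl2c3, was not analysed here. Prl2c1, the fourth row, had no fragments in any library. The summed counts were 6, 14 and 5 alone and 70, 76 and 80 with Th17 cells. The sum therefore moved from 0.665 ± 0.383 to 5.75 ± 0.479 CPM (SD, n = 3 each), a log2 fold change of 3.09 (SE 0.317) or 8.50-fold. This is a larger value than that of Prl2c2 alone, because fragments of Prl2c3 and Prl2c5 appeared only in cocultured libraries. In lone fibroblasts Prl2c2 held 25 of 25 Prl2c fragments (100%, 95% exact binomial interval 86.3% to 100%). With Th17 cells it held 163 of 226 (72.1%, interval 65.8% to 77.9%), Prl2c3 held 16.8% (12.2% to 22.3%) and Prl2c5 held 11.1% (7.29% to 15.9%). The intervals for Prl2c2 did not overlap, but they cover counting error only. Shares were similar among the cocultured libraries, from 65.7% to 76.3% for Prl2c2. For the lone libraries taken singly, 5 to 14 fragments were too few to tell these shares apart.

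**Figure D3:**
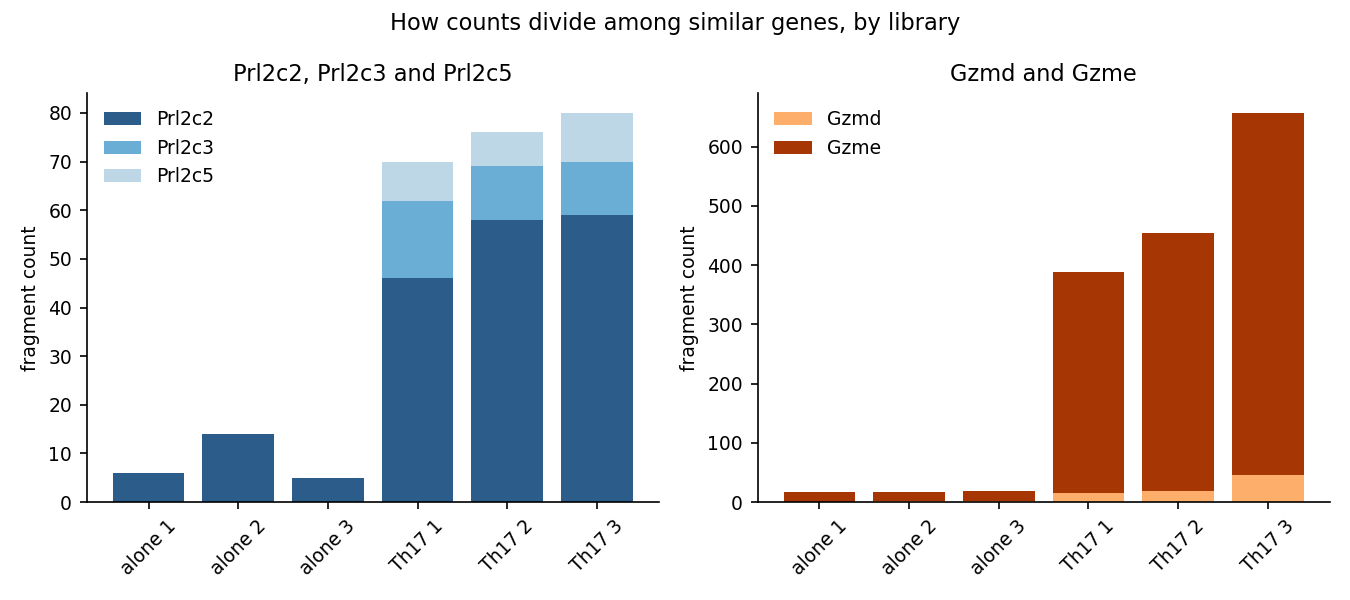
Fragment counts in each library (bars), stacked by gene, for Prl2c2, Prl2c3 and Prl2c5 on the left and for Gzmd and Gzme on the right. All lone Prl2c fragments, at most 14 in a library, belong to Prl2c2, and Gzme makes up at least 93.2% of the granzyme fragments in each cocultured library.

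Gzme had the most fragments of the 6 genes. Lone fibroblasts had 17, 15 and 16 counts, and cocultured fibroblasts had 373, 436 and 612. Lone libraries were nearly equal, whereas cocultured replicate 3 was 1.68 times cocultured replicate 1 in CPM. The level went from 1.29 ± 0.0888 to 36.2 ± 9.56 CPM (SD, n = 3 each), a log2 fold change of 4.80 (SE 0.242) or 28.0-fold. Gzmd followed at a lower level, with 0, 2 and 2 counts alone and 15, 18 and 45 with Th17 cells. Cocultured replicate 3 was again the high one, at 3.07 times replicate 1. The ratio of summed counts, 78 against 4, was 18.5 (95% exact interval for counting error 6.96 to 69.7), and the log2 fold change of 4.09 had an SE of 0.766. Without cocultured replicate 3 the log2 fold change of Gzmd was 3.44.

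The transcripts of Gzmd and Gzme are 94.8% identical, with differences spread along their length. Stretches shared with another gene made up 21.9% of Gzmd and 20.6% of Gzme at 50 bases, and 0.231% and 0% at 100 bases. Gzmd held 4 of the 52 lone fragments of the pair (7.69%, exact interval 2.14% to 18.5%) and 78 of the 1499 cocultured fragments (5.20%, interval 4.13% to 6.45%). These intervals overlapped, but they cover counting error only, and a different division between the genes was not tested. In cocultured replicates 1, 2 and 3 Gzmd held 3.87%, 3.96% and 6.85% of the pair. The summed counts of Gzmd, Gzme, Gzmf and Gzmg, to which Gzmf and Gzmg added 0, had a log2 fold change of 4.77 (SE 0.252).

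Compared per length, the members spanned a wide range of levels. In cocultured fibroblasts the deposited FPKM (fragment counts scaled to transcript length and library total) averaged 40.1 ± 10.8 for Gzme, 18.4 ± 2.26 for Prl8a9, 5.09 ± 0.777 for Prl2c2, 2.11 ± 1.35 for Gzmd, 1.16 ± 0.236 for Prl2c3 and 0.378 ± 0.0685 for Prl2c5 (SD, n = 3). Gzme thus stood above 94.5% of the genes with an FPKM above 0 in cocultured fibroblasts, and Prl8a9 above 87.2%. Neighbours in this order did not overlap across libraries except Gzmd and Prl2c3, whose ranges were 1.18 to 3.65 and 1.01 to 1.43. Lone fibroblasts had 1.36 ± 0.0958 FPKM of Gzme and 0.779 ± 0.448 of Prl2c2, and these ranges overlapped. The level of Prl2c5 depends on the length used. Its FPKM values imply 1717 bases, while the exons annotated for it in GENCODE cover 1177 bases.

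The promoters of the paired members are shown because Gzmd and Gzme, with nearly identical upstream sequence, had 78 and 1421 cocultured fragments, while Prl2c3 and Prl2c5, just as alike, had 38 and 25. The sequences below are from RefSeq on GRCm38.p6 and run over the 250 bases before each annotated start, 5′ to 3′ on the strand of the gene. RefSeq promoters were matched for 5 of the 6 members, Prl2c2 being the other one. They lie at chr14:56120626-56120875 (Gzme), chr14:56132594-56132843 (Gzmd), chr13:12800080-12800329 (Prl2c3) and chr13:27564607-27564856 (Prl8a9) on the minus strand, and at chr13:13182466-13182715 (Prl2c5) on the plus strand. Capitals mark the letters GGAATG or its reverse complement (the core of TEAD sites, the factors that the study followed in tubular cells). They also mark TGANTCA, a loose form of the AP-1 core with any base in the middle.
Gzme: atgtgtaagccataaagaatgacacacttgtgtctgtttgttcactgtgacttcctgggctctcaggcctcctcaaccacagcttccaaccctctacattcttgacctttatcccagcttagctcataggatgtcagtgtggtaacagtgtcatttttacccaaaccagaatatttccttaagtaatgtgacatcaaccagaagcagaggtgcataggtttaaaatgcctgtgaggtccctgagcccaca
Gzmd: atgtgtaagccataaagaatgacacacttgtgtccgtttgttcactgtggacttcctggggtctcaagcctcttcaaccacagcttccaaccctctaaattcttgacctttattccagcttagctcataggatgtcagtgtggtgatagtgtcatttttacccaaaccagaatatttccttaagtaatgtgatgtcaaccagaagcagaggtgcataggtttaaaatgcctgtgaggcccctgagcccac
Prl2c3: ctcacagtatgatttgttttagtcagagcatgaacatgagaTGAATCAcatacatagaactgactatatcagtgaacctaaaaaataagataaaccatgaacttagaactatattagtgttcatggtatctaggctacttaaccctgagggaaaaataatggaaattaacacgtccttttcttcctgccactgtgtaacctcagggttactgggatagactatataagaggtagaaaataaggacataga
Prl2c5: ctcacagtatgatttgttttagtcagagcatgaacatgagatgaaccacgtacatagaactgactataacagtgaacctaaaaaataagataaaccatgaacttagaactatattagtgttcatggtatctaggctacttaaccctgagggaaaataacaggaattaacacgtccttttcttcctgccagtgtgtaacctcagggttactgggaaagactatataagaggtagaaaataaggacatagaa
Prl8a9: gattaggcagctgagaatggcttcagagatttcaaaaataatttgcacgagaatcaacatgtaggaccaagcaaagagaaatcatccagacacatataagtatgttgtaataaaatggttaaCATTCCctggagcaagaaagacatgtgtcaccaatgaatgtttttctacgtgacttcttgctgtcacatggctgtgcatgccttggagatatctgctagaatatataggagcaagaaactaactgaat

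The upstream sequences of Gzmd and Gzme have 95.6% identical bases and those of Prl2c3 and Prl2c5 have 96.8%. Motifs were searched on both strands of the whole 300 bases, which include 50 after the start. The TEAD letters occur in the Prl8a9 promoter from base −128 to −123, and in 14.7% of all 32851 promoters. The relatives Prl8a1, Prl8a6 and Prl8a8 hold the same letters, and 1 fragment in all was counted for them. The AP-1 letters occur in Prl2c3 from −209 to −203 and in Prl8a9 from 3 to 9, and in 7.81% of all promoters. They are not in this window of Prl2c5, Gzmd or Gzme. The middle base of the Prl2c3 match, TGAATCA, is A, whereas the usual AP-1 core has C or G there. The share of promoters with that stricter form was not counted. TTCNNNGAA, the STAT core, occurs in Prl2c3 and in 8.30% of all promoters. The exact letters TATAAA of the TATA box, found in 13.6% of all promoters, do not occur in the promoters of the 5 members. Nor do those of the GATA core searched, TGATAA, which 9.05% of all promoters hold. Other spellings of these sites were not searched. The printed Prl2c3 and Prl2c5 sequences hold TATATAAG and AGATAA, that of Prl8a9 holds TATATAGG, and that of Gzmd holds TGATAG. The absence of the exact letters therefore does not mean that a promoter lacks a TATA box or a GATA site. A match shows only that the letters are there.

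The rest of the prolactin family stayed near the limit of detection. Of 27 family genes on the list, 26 had a row, and Prl2c4 was not analysed here. Of the 22 that are not members, 14 had 0 counts in all 6 libraries, 8 had at least 1 fragment, and 0 passed the filter. The nearest to the members were Prl3d2, a placental lactogen, with 0 counts alone and 6, 2 and 0 with Th17 cells, and Prl3a1, with 0 alone and 5, 2 and 0. In total these 22 genes amounted to 0.0845 to 0.158 CPM alone and 0.304 to 0.966 CPM after coculture. Prl itself, the pituitary hormone, had 2 fragments, both in lone replicate 2. The receptor gene Prlr had 1, 1 and 0 counts alone and 0 in each cocultured library.

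Granzymes outside the pair showed the same emptiness. Of 8 other granzyme genes, 5 had 0 counts in all libraries, among them Gzmc, Gzmf, Gzmg and Gzmn of the same cluster. Gzmb, the granzyme that cytotoxic T cells use most, had 0, 0 and 2 counts alone and 0, 1 and 0 with Th17 cells. Gzma had 3 fragments in lone replicate 1 and 0 elsewhere. Gzmm, which lies on chromosome 10, had 1, 3 and 4 counts alone and 4, 5 and 9 after coculture, with overlapping groups. None of the 8 passed the filter on low counts.

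**Figure D4:**
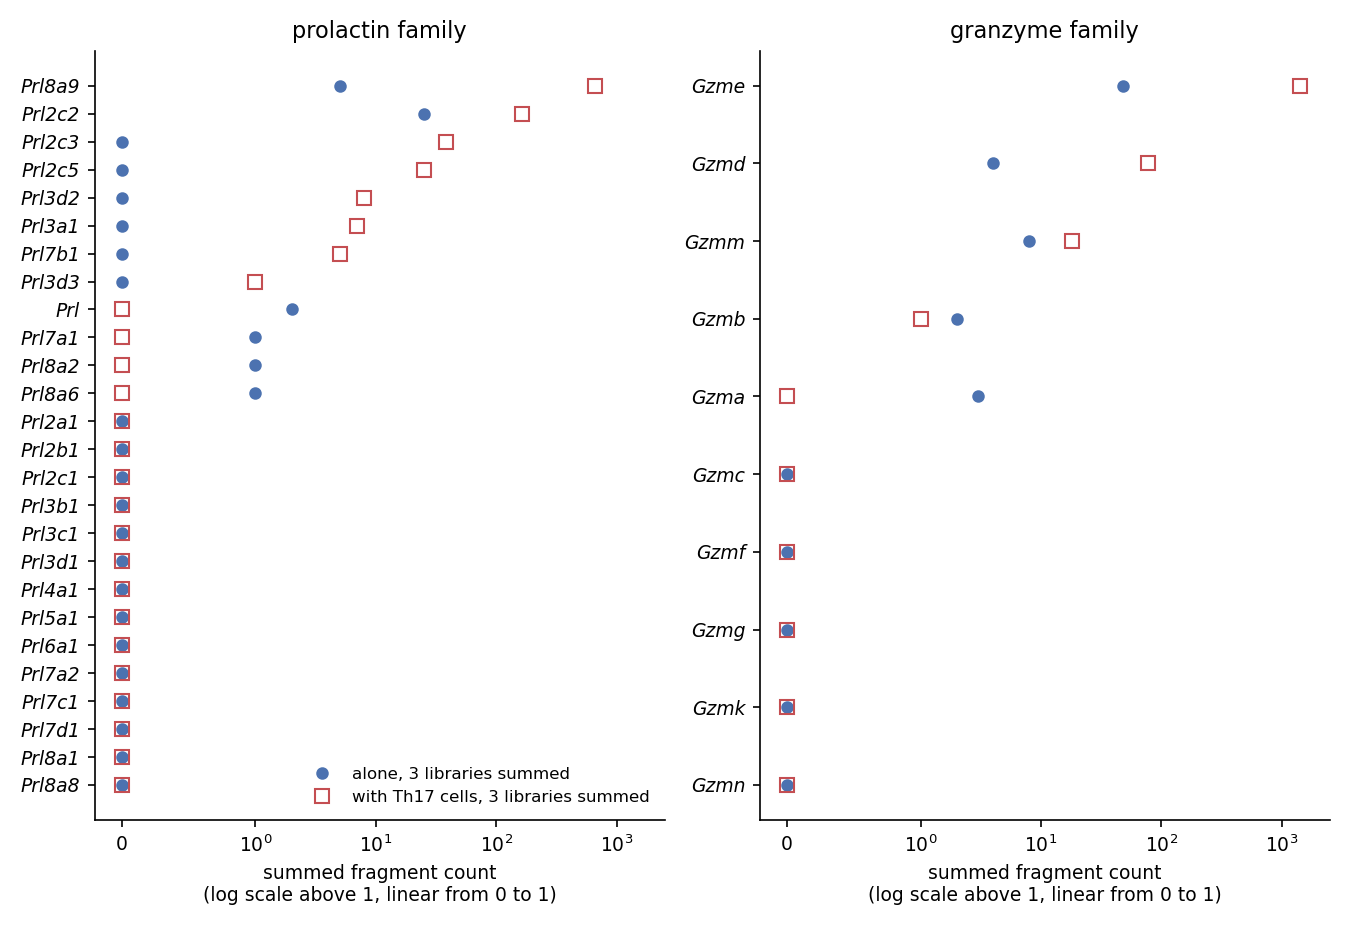
Fragment counts summed over the 3 libraries of each group (horizontal axis, log scale above 1) for the 26 prolactin genes and 10 granzymes with a row, filled circles for lone and open squares for cocultured fibroblasts. Beyond the members, no gene of either family reached more than 18 fragments in a group.

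The genes around the members were then examined, because this measure took no part in choosing them. Within 500 kb of a member lay 76 other rows, of which 29 had 0 counts throughout and 27 were tested. The test was the quasi-likelihood test of edgeR. Calls required more than a 2-fold difference and a Benjamini-Hochberg adjusted p under 0.05. Of the 27 neighbours, 1 was called higher and 1 lower with Th17 cells, and their median log2 fold change was 0.015. Over all genes tested, 3.87% were called higher and 7.78% lower, and the median was 0.0038.

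The neighbour that rose was Mcpt8, a serine protease gene best known from basophils. Mcpt8 (ENSMUSG00000022157, chromosome 14, 56082166 to 56085216) starts at −35.4 kb from the start of Gzme (lower coordinates) and was the nearest tested gene to the granzyme members. It had 10, 7 and 0 counts alone and 184, 191 and 304 with Th17 cells. Its level rose from 0.443 ± 0.400 to 17.3 ± 5.11 CPM (SD, n = 3 each). This was 5.22 ± 0.468 (SE) on the log2 scale, with an edgeR adjusted p = 3.01e-05. Mcpt8 was higher in all 3 cocultured libraries than in any lone one, and without lone replicate 1 its log2 fold change was 5.87. Cocultured replicate 3 was the high library for Mcpt8 too, at 1.69 times replicate 1, as it was for Gzme and Gzmd. This was not particular to the granzyme cluster. Among the prolactin members, Prl8a9 and Prl2c5 were also highest in that library, whereas Prl2c2 and Prl2c3 were not. Over all genes compared, cocultured replicate 3 stood apart from replicates 1 and 2, with chi-square values per gene of 15.2 and 14.02. The value between replicates 1 and 2 was 8.5. The Mcpt8 transcript is 63.1% identical to that of Gzme and shares no stretch of 50 bases with an annotated transcript of another gene.

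Of 8 serine protease genes on the list for the granzyme cluster (chymases, cathepsin G and mast cell proteases), Mcpt8 was the only one tested. Cma2 had 0 counts alone and 5, 3 and 2 with Th17 cells, Mcpt1 and Mcpt9 had 1 fragment each, and 4 genes had 0 in all libraries. Among the 20 tested neighbours of the granzyme members, 18 were not called, and Tgm1, a transglutaminase of keratinocytes, fell by 3.21 on the log2 scale (SE 0.408 and adjusted p = 0.000286, edgeR). Around the Prl2c genes 0 of 7 tested neighbours was called. Among them Nid1, a basement membrane gene, had −0.68 (edgeR adjusted p = 1.01e-05), and Heatr1 had 0.51 (edgeR adjusted p = 0.00044). Lgals8, a galectin gene, was the farthest from 0 of the 7, at −0.81 (edgeR adjusted p = 0.000175). Each of these genes passed on adjusted p and missed the call only on the fold limit. No neighbour of Prl8a9 within 500 kb was tested, and 17 of its 25 neighbours had 0 counts throughout.

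**Figure D5:**
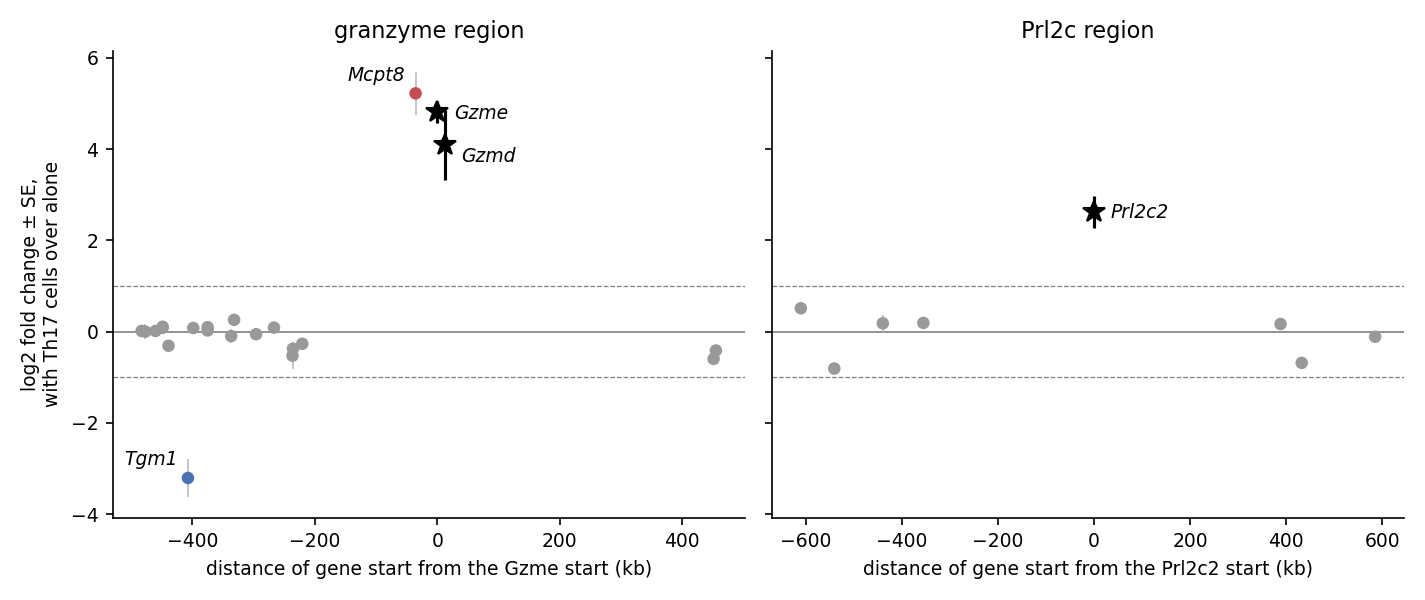
Log2 fold change ± SE (vertical axis, cocultured over lone) against the distance in kb of each tested gene's start from that of Gzme (left) or Prl2c2 (right), with members as black stars, dashed lines at −1 and 1, and called neighbours in red (higher) and blue (lower). Mcpt8 at 5.22 stands beside Gzme at 4.80 and Gzmd at 4.09, while Prl2c3 and Prl2c5, with 0 lone counts, are not drawn.

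Genes that store or activate granzymes, and protease inhibitors of which only some block granzymes, were tested to see whether they moved too. Beside this and the lists that follow, 3.87% of all genes tested were called higher and 7.78% lower. The lists were chosen with earlier results of these data known. Of 10 genes, 9 were tested, with 2 called higher, 1 lower and 6 not called, and a median log2 fold change of 0.47. Prf1, the gene of perforin, had 0 counts in all 6 libraries. Srgn, whose product serglycin holds granzymes in granules, had 18, 15 and 21 counts alone and 9, 9 and 10 with Th17 cells (−1.01 ± 0.319 SE on the log2 scale, edgeR adjusted p = 0.0339). Srgn stood just past the fold limit, and no fit that left out a library called it lower. Ctsc, the protease that activates granzymes, had 108 ± 0.976 CPM alone and 99.2 ± 2.07 CPM after coculture (SD, n = 3 each; edgeR adjusted p = 0.148).

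The called increases in this group were inhibitors. Serpina3n, a secreted inhibitor of granzyme B and other serine proteases, rose 7.04-fold, from 7.39 ± 2.02 to 51.9 ± 5.77 CPM (SD, n = 3 each; edgeR adjusted p = 2.5e-06). Serpina3g, an inhibitor of cathepsins, rose 7.38-fold, from 41.6 ± 2.16 to 307 ± 29.2 CPM (SD, n = 3 each; edgeR adjusted p = 4.56e-08). Both belong to a family of similar genes, and how much sequence they share with relatives was not measured here. Serpinb9, the inhibitor of granzyme B inside cells, had 102 ± 6.02 CPM alone and 67.1 ± 2.61 CPM with Th17 cells (SD, n = 3 each; edgeR adjusted p = 0.000182), and Serpinb9b had 76.2 ± 2.76 and 136 ± 7.19 CPM (edgeR adjusted p = 1.49e-05).

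Receptor genes through which the hormones could act were examined next. Of 11 genes of prolactin receptor signalling and the proliferin receptor, 10 were tested, with 2 called higher, 0 lower and 8 not called, and a median log2 fold change of −0.11. Igf2r, which encodes the mannose 6-phosphate receptor that binds proliferin, had 167 ± 6.01 CPM alone and 149 ± 9.12 CPM with Th17 cells (SD, n = 3 each; edgeR adjusted p = 0.0867). Jak2, Stat5a and Stat5b, the kinase and the factors used by the prolactin receptor, did not pass the threshold (edgeR adjusted p = 0.166, 0.585 and 0.154). The genes called higher were feedback inhibitors that many cytokine receptors induce. Socs3 rose 5.78-fold, from 35.0 ± 1.29 to 202 ± 31.9 CPM (SD, n = 3 each; edgeR adjusted p = 3.17e-07), and Cish rose 6.17-fold, from 16.5 ± 6.42 to 102 ± 27.1 CPM (SD, n = 3 each; edgeR adjusted p = 0.000107). Feedback genes did not all rise. Under the fold limit, Socs2 went from 21.5 to 14.4 CPM (edgeR adjusted p = 0.03) and Socs1 from 6.94 to 11.3 CPM (edgeR adjusted p = 0.00663). Stat3 went from 246 to 194 CPM (edgeR adjusted p = 0.00271).

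Markers of cells that normally express the members were read in the same libraries. Of 28 trophoblast markers, 15 had 0 counts throughout and 4 were tested, with 1 called higher. This was Gata3, a factor of trophoblast and of many other cells, with 10, 6 and 6 counts alone and 25, 28 and 27 after coculture (log2 fold change 1.77, edgeR adjusted p = 0.002). The count of trophoblast markers called higher was 2 without lone replicate 2 or without cocultured replicate 3, and 0 by limma on log2(FPKM + 1) or with at least 10 counts required in every library. With no filter on low counts, 2 were called lower. Gata2, a factor that trophoblast shares with blood and other cells, was at 7.62 ± 0.659 CPM alone and 14.5 ± 1.48 CPM with Th17 cells (SD, n = 3 each; edgeR adjusted p = 0.000622), 1.90-fold and so under the fold limit. Other markers of the list had lower values after coculture. Krt7 had 4, 9 and 5 counts alone and 0 in each cocultured library, Krt8 had 8, 8 and 1 against 1, 0 and 0, and Tfap2c had 1, 1 and 3 against 0, all untested. Ascl2 was at 2.06 ± 0.853 CPM alone and 1.25 ± 0.375 CPM with Th17 cells (SD, n = 3 each; edgeR adjusted p = 0.171). The summed level of the list was 12.03 to 14.3 CPM alone and 17.4 to 22.1 CPM with Th17 cells. The defining genes Cdx2, Elf5, Gcm1, Tpbpa and Tpbpb were at 0 in all 6 libraries.

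Lymphocyte markers were summed in the same way. Of 20 T cell and Th17 markers, 7 had 0 counts throughout, among them Il17a, Il17f, Cd3d and Cd8a, and the summed level was 8.61 to 9.64 CPM alone and 4.79 to 5.58 CPM with Th17 cells. Of the 3 tested, 0 were called higher and 2 lower. Ptprc, the pan-leukocyte marker, had 14, 12 and 11 counts alone and 0 in each cocultured library, and Lck, a T cell kinase, went from 4.72 ± 0.818 to 2.29 ± 0.481 CPM (SD, n = 3 each; edgeR adjusted p = 0.00755). Only 1 was called lower without lone replicate 2, without cocultured replicate 3, with library size only or with at least 10 counts in every library, and 0 by limma. Trac, the other tested marker, was at 2.64 ± 0.944 CPM alone and 2.69 ± 0.496 CPM with Th17 cells (SD, n = 3 each, edgeR adjusted p = 0.948). Among the untested, Cd3e had 1, 1 and 0 counts alone and 0, 0 and 6 with Th17 cells. Zap70 had 4, 0 and 0 against 0, 0 and 4, and Il2ra had 11, 0 and 1 against 0. No other untested marker of this list had more than 3 counts in a library. Cytotoxic lymphocyte markers other than the members summed to 0.845 to 1.40 CPM alone and 1.12 to 1.41 CPM after coculture, so the groups overlapped, and 8 of 15 were at 0, including Prf1, Ncr1, Klrd1 and Ifng. Of 10 mast cell markers, 6 were at 0 throughout, among them Cpa3 and Fcer1a, which basophils also express, and the sum was 1.47 to 1.86 CPM alone and 0 to 0.228 CPM with Th17 cells. Summed macrophage markers were at 58.1 to 61.5 CPM alone and 19.9 to 21.1 CPM after coculture, epithelial markers at 22.2 to 23.8 and 7.83 to 9.11 CPM, and endothelial markers at 128 to 140 and 82.3 to 95.4 CPM. Of the tested markers, 3 of 5 macrophage, 2 of 4 epithelial and 1 of 3 endothelial were called lower, and 0 higher. In the alternatives 2 to 5, 1 to 3 and 0 to 1 were called lower. The largest in lone fibroblasts were Lyz2 (27.6 CPM alone and 3.33 after coculture), Krt19 (15.3 and 2.47) and Eng (127 and 87.9). The falls were not uniform, with Cd14 at 11.2 and 11.2 CPM, Aqp1 at 2.96 and 4.25 and Pecam1 at 1.235 and 1.32. Among these lists, that of trophoblast alone had a summed level that was higher in every cocultured library, and most of that sum was Gata2. The part of the trophoblast markers in the counts of the members was not tested.

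The genes outside the 6 whose profile was most like theirs were named by the root mean square difference, over the 6 libraries, between log2 CPM centred on each gene's mean and the mean centred profile of the 5 members in the fit. Genes whose mean count stayed under 100 in both groups were left out. The nearest were Gm2115 at 0.11, Grem1, a BMP antagonist, at 0.126, Il13ra2, a decoy receptor, at 0.193, Upp1, a uridine phosphorylase, at 0.209 and Cd53, a tetraspanin of leukocytes, at 0.220 log2 units. Cd53 was on none of the marker lists above. It had 157, 163 and 145 counts alone and 1621, 1534 and 2015 after coculture, unlike the leukocyte marker Ptprc, which was at 0 there. The source of the Cd53 fragments was not tested. The members themselves lay 0.433 (Gzme) to 1.31 (Prl8a9) from their own mean profile. The 5 genes were picked for their closeness to that profile, so nothing is read from the difference.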

How the data were processed

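RNA of 3 lone and 3 cocultured fibroblast libraries was sequenced on an Illumina instrument. Reads were quality filtered (Seqtk) and aligned (HISAT2 2.0.4) by the authors, who deposited raw fragment counts per gene from StringTie 1.3.3b, with FPKM values beside them. The submitters' processing notes name build mm10, and annotation (GENCODE release M21) is on the same build as GRCm38. Strand use was not given. Totals were 12050529 to 13209581 counts, and a floor of 3 counts was 0.223 to 0.254 CPM. Groups came from sample titles. Counts were filtered by filterByExpr (minimum count 10). After TMM scaling they entered the quasi-likelihood test of edgeR 4.0.16 in R 4.3.3. Genes were called with adjusted p below 0.05 and fold change above 2. SE is the log2 fold change divided by the square root of F. Intervals cover counting error only, since fragments are not independent molecules. Members and lists were chosen with earlier results of these data known. Named genes are the members, list genes, called neighbours within 500 kb, and 5 genes of like profile (prior count 2), with Heatr1, Lgals8 and Nid1 named after their values were seen. Alternatives were DESeq2 1.42.0, limma 3.58.1 on log2(FPKM + 1), other scalings and filters, a replicate block, merged paralogs, other windows and leaving out each library. Protein identity was not analysed here. Python 3.11.15 drew figures.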

Additional observations from a re-analysis of the deposited data

How the results depend on the processing

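All values for the members and for both sums kept their direction under every alternative that gave one. Limma on log2(FPKM + 1), which shrinks genes of low level, moved them most, to log2 fold changes of 4.11 for Prl8a9, 1.79 for Prl2c2, 1.41 for Gzmd, 4.09 for Gzme, 2.13 for the summed Prl2c genes and 4.09 for the summed granzymes, and gave 625 called genes against 1524. On adjusted p alone, 4856 genes were called. When each library was left out in turn, log2 fold changes ran from 6.31 to 6.95 for Prl8a9 (not fitted without lone replicate 1), 2.39 to 3.20 for Prl2c2, 3.44 to 4.50 for Gzmd, 4.58 to 4.97 for Gzme, 2.86 to 3.67 for the summed Prl2c genes, 4.53 to 4.93 for the summed granzymes and 4.68 to 5.87 for Mcpt8. The bounds ran from 3.36 to 4.05 for Prl2c3 and from 2.26 to 2.67 for Prl2c5.

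With no filter on low counts the cluster protease median was 3.30, since untested genes then entered. The 1 gene called lower among granzyme storage and activation genes, Srgn, gave 0 calls with DESeq2, with library size only, with no filter, with at least 10 counts in every library, with the replicate block, with limma and in each fit without a library (0 to 0). Neighbours called higher and lower were 0 and 0 with at least 10 counts in every library, where Mcpt8 and Tgm1 were not tested. Lower neighbours were 0 with limma, 0 within 100 kb and 2 within 1000 kb. The neighbour median was 0.079 with library size only, 0.073 with limma and −0.038 to 0.014 without a library. The receptor list median was −0.052 with library size only and −0.042 with limma. Between libraries with the same replicate number, the correlations of deviations from the group means were 0.016, −0.026 and −0.004. No effect shared by number was detectable, but this cannot tell whether the cultures were paired. With the replicate block, log2 fold changes were 6.87 for Prl8a9, 2.65 for Prl2c2, 4.07 for Gzmd and 4.78 for Gzme, and 1495 genes were called. Depth limits Prl2c3, Prl2c5 and Gzmd most, each with at most 45 counts in a library.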
